A study of Homo sapiens with 16 samples.

Results

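The genes described here are the enzymes of glycolysis, the main isoforms of each, the enzymes that set fructose 2,6-bisphosphate, and the transporters that bring in glucose and carry lactate. The list held 30 genes, and a gene was read from its probe set, the group of probes the array reports as 1 value, when that probe set carried a single gene symbol. Of the 30, 27 were found among 18417 genes, and a gene with several such probe sets was read from the brightest on average. PGAM1 lies only on probe sets that also carry PGAM4, and SLC16A1 and SLC16A3, the monocarboxylate transporters MCT1 and MCT4, had no single-symbol probe set, so these 3 genes are not analysed here.

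The study compared 4 human cell lines with derivatives of the same lines that are labelled hypoxia-resistant (HR). Parental RPMI8226, KMS-11, U266 and IM-9 cells were kept for 24 h in 20% oxygen, and RPMI8226-HR, KMS-11-HR, U266-HR and IM-9-HR cells were kept for 24 h in 1% oxygen. The labels call all 4 lines multiple myeloma-derived, myeloma being a plasma cell cancer. IM-9 is known from other work as a B lymphoblastoid line that carries Epstein-Barr virus. Each of the 8 groups had 2 arrays, 16 in all. The labels give no HR cells in 20% oxygen and no parental cells in 1% oxygen, so the HR state and the oxygen level cannot be told apart, and every difference below is of both together. Whether a group's 2 arrays came from separate cultures is not labelled, so p-values measure the spread between arrays, which may be technical. Each line stands as 1 parental and 1 HR population, with no count of clones given.

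Glycolysis turns glucose into pyruvate, and lactate dehydrogenase turns pyruvate into lactate, which lets the pathway go on without oxygen. Cells in low oxygen stabilise the transcription factor HIF-1, and many of its known targets are glycolysis genes, often a particular isoform of a family. Plasma cells and myeloma cells take up glucose both for energy and to build the sugar chains of secreted antibody.

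Values are log2 intensities of a probe set as deposited, and 1 unit is a factor of 2. A difference is the HR mean minus the parental mean of the same line. Differences listed for the 4 lines in turn run from RPMI8226 through KMS-11 and U266 to IM-9. The word "rose" or "fell" is used only where limma's moderated test, with Benjamini-Hochberg adjustment over the 12639 genes tested, gave an adjusted p under 0.05. Genes were tested when at least 2 arrays lay above 6.27, the median of all values, which kept 25 of the 27 genes. HK3 (5.06 to 5.55) and PFKFB1 (4.34 to 4.87) lay below that level on all 16 arrays. A gene can pass this filter through the 1 group in which it is high, so counts over the 25 describe those 25 and not the whole list. No value is compared between probe sets of different genes, since brightness differs between probes.

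As a check of the libraries, the array medians lay between 6.22 and 6.34, and arrays of 1 group correlated at 0.993 to 0.996, against 0.915 to 0.948 between lines. All 6 plasma cell markers lay above the filter level on every array of RPMI8226, and 5 of 6 did in KMS-11, U266 and IM-9, where CD38 lay below it on every array. All 5 B cell markers in the table were above it on every IM-9 array, against 1 in U266, 1 in KMS-11 and 2 in RPMI8226. None of 4 myeloid markers was above it on every array of any line, and 1 of 4 T and NK cell markers and 1 of 4 stromal markers was.

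The glucose transporter SLC2A1, the aldolase isoform ALDOC, the isomerase GPI, the ATP-producing kinase PGK1 and lactate dehydrogenase A rose in all 4 HR lines, by 1.13-fold (LDHA in IM-9) to 4.69-fold (SLC2A1 in U266). HK2, PFKFB3, PFKFB4, PFKP and SLC2A3 each rose in 3 of the 4 lines. PFKM, the muscle type of phosphofructokinase-1, was the 1 gene of the 25 that fell in 3 lines. HK1, ADPGK, GAPDH, PGAM2, BPGM, PFKFB2 and LDHB did not pass in any line in this fit. In bulk cultures, fewer cells that express a gene and less of its RNA per cell cannot be told apart.

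Counted by line, 14 of the 25 genes rose in U266 (9.68% of all genes tested rose there), 13 in KMS-11 (2.44% of all), 9 in RPMI8226 (10.7%) and 8 in IM-9 (14.4%). Falls were fewer, with 1 gene in RPMI8226 (PFKM, 15.3% of all genes fell), 0 in KMS-11 (5.83%), 2 in U266 (PFKM and ENO3, 8.42%) and 1 in IM-9 (PFKM, 21.3%). For KMS-11, limma gave 1 of the 25, PFKFB2, below parental at an unadjusted p under 0.05. The share of all genes below parental at that unadjusted level was not counted. The 10 genes that rose in at least 3 lines compare with 1.18% of all genes, the 5 that rose in all 4 with 0.348%, and the 1 that fell in at least 3 with 1.51%. With an intensity trend 7 genes rose in all 4 lines, HK2 and PKM being added, and 12 in at least 3. A second quantile normalization gave 4 and 11, with HK2 among the 4 and PGK1 and LDHA not. Array weights gave 4 and 10. No share over all genes was counted for these alternatives. No gene of the 25 rose in 1 line and fell in another, which 10.8% of all genes did. The median difference over the 25 was 0.12, 0.27, 0.33 and 0.15 in the 4 lines in turn, while the median over all genes tested was -0.01, -0.02, -0.01 and -0.06.

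SLC2A1 and ALDOC rose in all 4 lines whichever of the 16 arrays was left out. For GPI, PGK1 and LDHA the call in IM-9 was lost without the first parental array, the first HR array or the second HR array of that line, which leaves 2 genes risen in all 4 lines in place of 5. With each KMS-11 array left out in turn the count was 3 or 4, without either U266 HR array it was 4, and over all leave-outs it ran from 2 to 6. The count risen in at least 3 lines stayed at 9 or 10.

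Taking the line as the unit, with 1 difference for each of the 4 lines, limma passed none of the 25 genes and none of the 12639 (0%). At an unadjusted p under 0.05 it passed 13 of the 25 genes and 6.27% of all genes. Mean differences over the 4 lines were 1.52 ± 0.35 (SE) for PFKFB4, 1.34 ± 0.36 for PFKFB3, 1.28 ± 0.26 for SLC2A1, 1.15 ± 0.46 for HK2 and 1.04 ± 0.14 for ALDOC. The smallest adjusted p, 0.336, belonged to ALDOC.

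**Figure D1:**
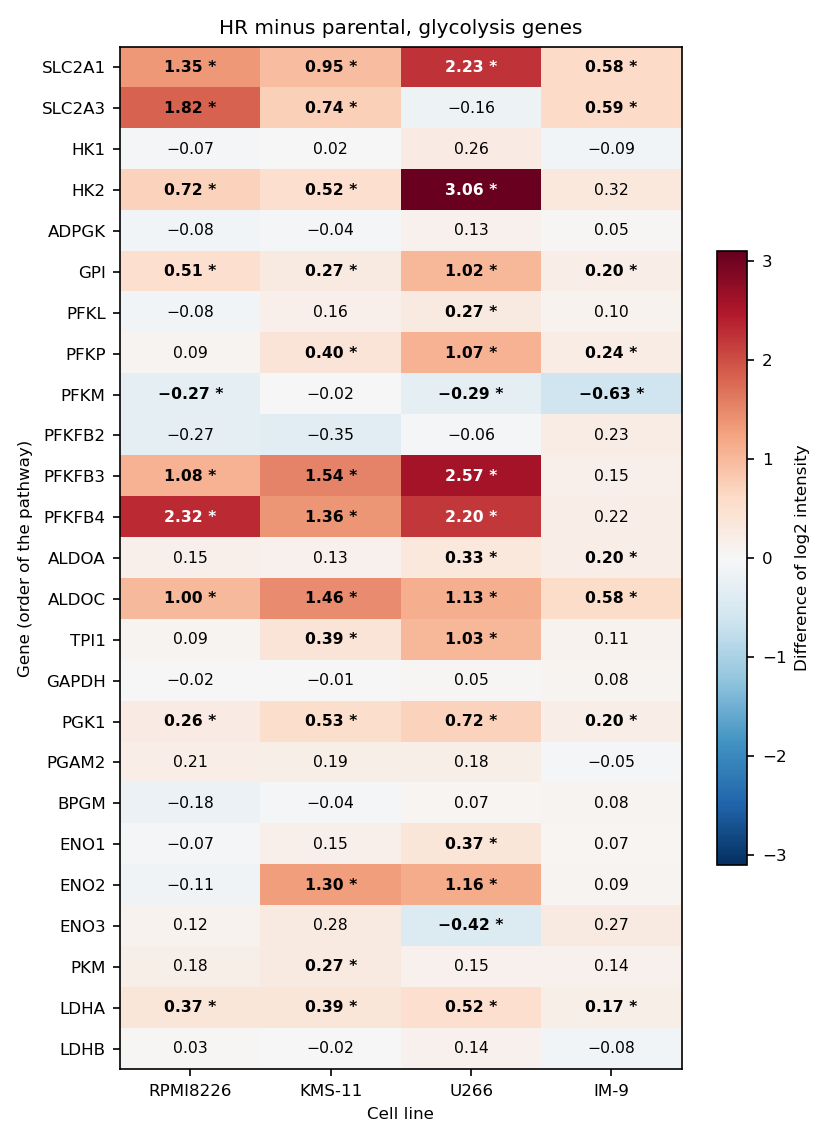
Differences of log2 intensity, HR minus parental, for the 25 tested genes (rows, in the order of the pathway) in the 4 lines (columns), with the value printed in each cell and an asterisk and bold type where limma's adjusted p was under 0.05. HK2 in U266 reaches 3.06, the PFKFB3 and PFKFB4 rows are dark in every column but IM-9, and PFKM is the row with 3 called falls.

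The upstream sequences of the 5 genes that rose in all 4 lines are shown next. That of LDHB, the isoform paired with LDHA, is added and passed in no line in this fit. Each is the 250 bases before the RefSeq transcript start, 5′ to 3′ on the gene's strand, in build GRCh38.p14. Capitals mark ACGTG or GCGTG, the core letters of a hypoxia response element, on either strand, so that on the other strand they appear as CACGT or CACGC. The capitals CACGTG are ACGTG read on both strands, overlapping.
SLC2A1: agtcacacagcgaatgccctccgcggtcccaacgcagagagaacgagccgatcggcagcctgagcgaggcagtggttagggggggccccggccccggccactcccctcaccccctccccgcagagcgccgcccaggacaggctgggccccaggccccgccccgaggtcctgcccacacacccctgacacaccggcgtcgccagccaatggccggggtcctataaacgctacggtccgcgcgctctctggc
ALDOC: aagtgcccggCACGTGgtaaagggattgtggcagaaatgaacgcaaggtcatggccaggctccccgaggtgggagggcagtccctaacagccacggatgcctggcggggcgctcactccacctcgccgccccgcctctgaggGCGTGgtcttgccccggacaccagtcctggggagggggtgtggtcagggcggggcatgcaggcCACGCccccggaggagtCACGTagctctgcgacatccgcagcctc
GPI: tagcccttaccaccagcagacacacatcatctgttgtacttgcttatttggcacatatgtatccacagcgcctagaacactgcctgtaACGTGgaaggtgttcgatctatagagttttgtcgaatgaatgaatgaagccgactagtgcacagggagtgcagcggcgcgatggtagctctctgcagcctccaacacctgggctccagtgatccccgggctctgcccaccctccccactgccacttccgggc
PGK1: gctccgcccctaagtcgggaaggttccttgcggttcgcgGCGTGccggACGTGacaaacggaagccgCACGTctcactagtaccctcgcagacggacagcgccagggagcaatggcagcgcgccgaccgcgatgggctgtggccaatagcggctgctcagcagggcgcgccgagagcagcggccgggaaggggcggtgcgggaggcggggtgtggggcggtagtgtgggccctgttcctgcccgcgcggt
LDHA: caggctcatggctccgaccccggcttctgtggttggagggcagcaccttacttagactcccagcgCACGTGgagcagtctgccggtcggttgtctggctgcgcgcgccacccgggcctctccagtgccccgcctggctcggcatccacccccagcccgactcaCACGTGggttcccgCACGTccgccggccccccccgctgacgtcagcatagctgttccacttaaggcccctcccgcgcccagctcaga
LDHB: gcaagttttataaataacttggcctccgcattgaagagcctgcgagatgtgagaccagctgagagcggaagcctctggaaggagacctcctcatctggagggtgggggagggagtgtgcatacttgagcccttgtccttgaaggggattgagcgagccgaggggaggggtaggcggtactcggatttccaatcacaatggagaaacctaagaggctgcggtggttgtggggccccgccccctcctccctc

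These windows lie at chr1:42958869-42959118 on the minus strand for SLC2A1, chr17:28576896-28577145 on the minus strand for ALDOC and chr19:34364742-34364991 on the plus strand for GPI. The others are chrX:78103998-78104247 on the plus strand for PGK1, chr11:18394313-18394562 on the plus strand for LDHA and chr12:21657843-21658092 on the minus strand for LDHB. The letters occurred at 5 positions for ALDOC, 5 for LDHA, 3 for PGK1, 1 for GPI and 0 for SLC2A1 and LDHB. A later LDHA start in the same table has 1 position. Of all 35114 RefSeq windows of this length, 43.2% held at least 1 position and 19.4% held 2 or more. Entries existed for 27 of the 30 listed genes, some with several starts. The letters stood before every start of 15 of these 27 genes and before at least 1 start of 21, counts of genes that are not comparable with the share of single windows. Among genes risen in all 4 lines, 4 of 5 held them before every start, and among tested genes risen in no line 4 of 8 did, or 7 of 8 counting any start. LDHB is the 1 of those 8 without the letters, so its sequence does not stand for the genes that rose in no line. A match is a description of letters in this window only, and SLC2A1, which rose in every line, has none in it.

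Glucose uptake was read from SLC2A1 (GLUT1), the basal glucose transporter of most cells, and SLC2A3 (GLUT3), a high-affinity transporter best known from neurons. For each line, the 2 parental arrays are given first and the 2 HR arrays after the word "against". SLC2A1 measured 9.96 and 10.04 against 11.35 and 11.36 in RPMI8226 and 8.18 and 8.21 against 9.15 and 9.14 in KMS-11. It measured 6.82 and 7.30 against 9.38 and 9.20 in U266 and 9.12 and 9.03 against 9.71 and 9.61 in IM-9. Both HR arrays lay above both parental arrays in every line, and the lowest parental values were those of U266, whose arrays also lay farthest apart. The rise was 4.69-fold in U266 (limma adjusted p = 3.25e-08), 2.55-fold in RPMI8226 (3.86e-06), 1.93-fold in KMS-11 (0.000478) and 1.5-fold in IM-9 (0.00213), with an SE of 0.12 log2 units in each. The 4 differences were unequal by limma's F test between lines (adjusted p = 4.09e-05), a test that 17 of the 25 genes and 45.4% of all genes passed.

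SLC2A3 followed another order of lines. Its arrays read 6.34 and 6.14 against 7.90 and 8.22 in RPMI8226 and 6.98 and 6.90 against 7.69 and 7.66 in KMS-11. They read 5.84 and 5.86 against 5.63 and 5.76 in U266 and 8.04 and 8.18 against 8.82 and 8.57 in IM-9. IM-9 held the highest values and U266 the lowest, below the filter level on all 4 arrays, and in U266 the HR arrays lay slightly under the parental ones. SLC2A3 rose 3.52-fold in RPMI8226 (limma adjusted p = 1.26e-07), 1.67-fold in KMS-11 (0.00177) and 1.5-fold in IM-9 (0.00132), and the U266 difference was -0.16 ± 0.11 (0.388). The parental RPMI8226 arrays lay on either side of the filter level, so the fold in that line starts near it. The F test between lines gave an adjusted p of 6.9e-06. SLC2A14 is a near-identical copy of SLC2A3, so signal may be shared between their probe sets. SLC2A14 itself differed by 0.88, 0.41, -0.04 and -0.0031 in the 4 lines in turn, of which the RPMI8226 rise passed.

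Set against each other within an array, the 2 transporters changed unequally in RPMI8226, KMS-11 and U266, not all in the same direction, and about equally in IM-9. The log2 ratio of SLC2A3 to SLC2A1 changed by -2.39 in U266, by -0.21 in KMS-11, by 0.47 in RPMI8226 and by 0.0013 in IM-9. U266, where SLC2A3 lay below the filter level, sets the sign of the mean, which was -0.53 over 4 lines and 0.09 without U266. The mean over 4 lines did not pass an exact permutation test in which HR and parental labels were exchanged within lines (2-sided p = 0.248, adjusted p = 0.311 over the 10 isoform pairs compared).

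**Figure D2:**
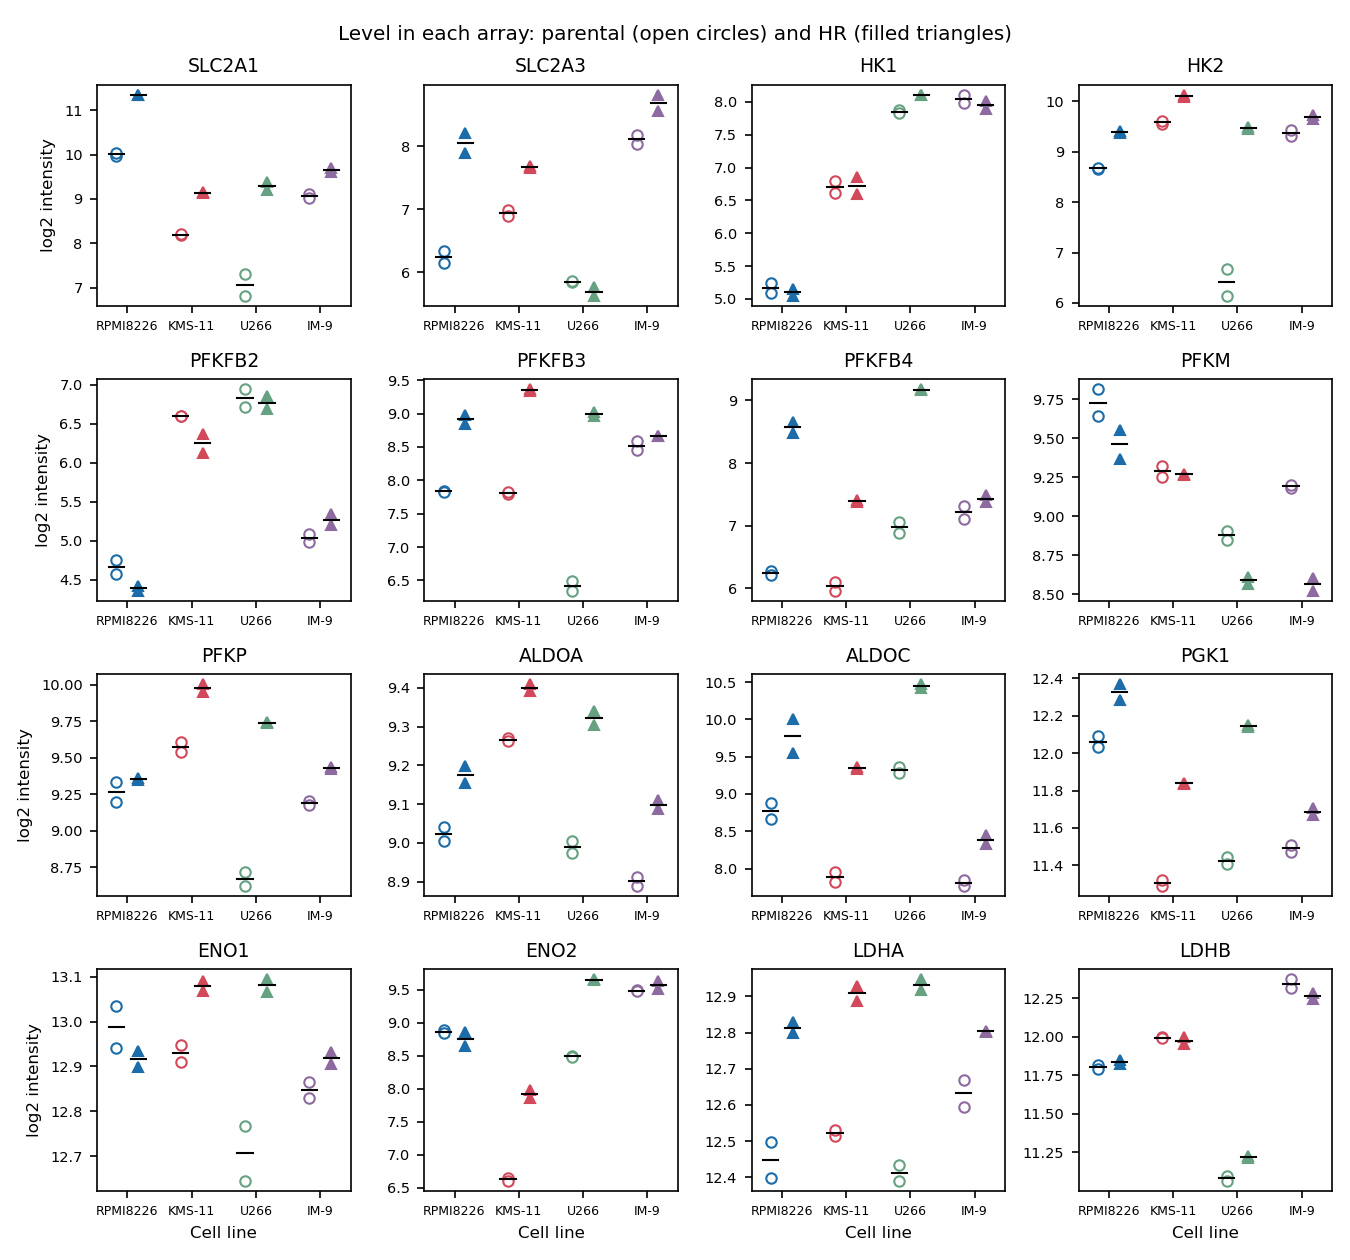
The log2 intensity of 16 genes on every array, by line (colour), with 1 open circle per parental array, 1 filled triangle per HR array and a black bar at each group's mean. HK2 and PFKFB3 lie far below the other lines in parental U266 and near them in U266-HR, while LDHB and HK1 sit at line-specific levels with little distance between parental and HR points.

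Hexokinases trap glucose in the cell as glucose 6-phosphate. HK1 is the isoform of most tissues, HK2 is the inducible isoform of muscle, fat and many tumours, and ADPGK uses ADP in place of ATP. HK2 measured 8.66 and 8.68 against 9.40 and 9.37 in RPMI8226 and 9.55 and 9.61 against 10.13 and 10.08 in KMS-11. It measured 6.14 and 6.67 against 9.48 and 9.44 in U266 and 9.31 and 9.42 against 9.72 and 9.65 in IM-9. The parental U266 arrays, 1 of them below the filter level, stood apart from all others, and the HR arrays were above the parental ones in every line. HK2 rose 8.32-fold in U266 (limma adjusted p = 1.96e-09), the largest difference among the 25 genes, and 1.65-fold in RPMI8226 (0.000717). In KMS-11 it rose 1.44-fold (0.0184), a call lost without any 1 of the 4 KMS-11 arrays (differences of 0.50 to 0.55, adjusted p from 0.0808 to 0.114). The IM-9 difference of 0.32 ± 0.12 just missed (0.0573) and passed after a second quantile normalization (0.0446). Its F test between lines gave 2.51e-07.

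HK1 differed mainly by line. Its arrays read 5.25 and 5.09 against 5.05 and 5.15 in RPMI8226 and 6.62 and 6.79 against 6.85 and 6.6 in KMS-11. They read 7.88 and 7.82 against 8.11 and 8.11 in U266 and 8.11 and 7.98 against 7.90 and 8.02 in IM-9. RPMI8226 lay below the filter level on all 4 arrays, and parental and HR arrays overlapped in RPMI8226, KMS-11 and IM-9. Parental U266 and IM-9 did not pass the pairwise test (difference -0.19, limma adjusted p = 0.0896), and the other 5 parental pairs did. The HR difference ran from -0.09 in IM-9 to 0.26 in U266 (SE 0.09, smallest adjusted p 0.0779 in U266). The U266 value passed with array weights (0.0396) and in a fit on the 4 U266 arrays alone (0.0307). The log2 ratio of HK2 to HK1 changed by 0.51, 2.80 and 0.40 in KMS-11, U266 and IM-9. In RPMI8226 it changed by 0.79, with HK1 below the filter level. Its mean of 1.12 had an exact permutation p of 0.00154, the smallest that the 1296 arrangements can give, and an adjusted p of 0.00309. Without RPMI8226 the mean was 1.24 (exact permutation p = 0.00926, the smallest possible over 3 lines, adjusted p = 0.0185). ADPGK lay between 8.46 and 9.14 on the 16 arrays with differences from -0.08 to 0.13, none of which passed.

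GPI, which converts glucose 6-phosphate to fructose 6-phosphate, was bright on all arrays. It measured 11.02 and 11.11 against 11.55 and 11.62 in RPMI8226 and 11.19 and 11.24 against 11.51 and 11.47 in KMS-11. In U266 it measured 10.67 and 10.66 against 11.69 and 11.67, and in IM-9 11.09 and 11.14 against 11.31 and 11.32. Every HR array lay above every parental array, not only within a line but over all 4 lines, and U266 went from the lowest parental group to the highest HR group. GPI rose 2.03-fold in U266 (limma adjusted p = 5.19e-08), 1.43-fold in RPMI8226 (3e-05), 1.21-fold in KMS-11 (0.0117) and 1.15-fold in IM-9 (0.0153), with an SE of 0.06. Without any 1 of the KMS-11 arrays the call there was lost (differences of 0.25 to 0.30, adjusted p from 0.0556 to 0.0986). Without the first parental array, the first HR array or the second HR array of IM-9 the call there was lost too (0.18, 0.21 and 0.20, adjusted p of 0.0788, 0.0625 and 0.0723). By the F test the 4 lines were unequal (2.09e-05).

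Phosphofructokinase-1 commits sugar to glycolysis and works as a tetramer of the liver (PFKL), platelet (PFKP) and muscle (PFKM) types. PFKP measured 9.20 and 9.33 against 9.35 and 9.36 in RPMI8226 and 9.61 and 9.54 against 10.00 and 9.95 in KMS-11. It measured 8.72 and 8.63 against 9.74 and 9.74 in U266 and 9.20 and 9.17 against 9.43 and 9.42 in IM-9. U266 was again the lowest parental group, and the 4 lines' HR arrays were above their parental arrays. PFKP rose 2.09-fold in U266 (limma adjusted p = 8.33e-08), 1.32-fold in KMS-11 (0.00227) and 1.18-fold in IM-9 (0.0103). The RPMI8226 difference was 0.09 ± 0.06 (0.353). Without the first HR array the IM-9 call was lost (0.23, adjusted p = 0.0554).

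PFKM was lower in the HR cells of 3 lines. Its arrays read 9.64 and 9.81 against 9.55 and 9.37 in RPMI8226 and 9.32 and 9.25 against 9.27 and 9.27 in KMS-11. They read 8.91 and 8.84 against 8.56 and 8.61 in U266 and 9.18 and 9.20 against 8.52 and 8.60 in IM-9. HR arrays lay under parental arrays in RPMI8226, U266 and IM-9, with the widest gap in IM-9, and overlapped them in KMS-11. PFKM fell by 0.63 ± 0.08 in IM-9, 1.55-fold (limma adjusted p = 4.02e-05), by 0.29 in U266 (0.0181) and by 0.27 in RPMI8226 (0.0201). The KMS-11 difference was -0.02 (0.912). The RPMI8226 call was lost without the second parental or the second HR array of that line (-0.18 in both, adjusted p of 0.166 and 0.159). The U266 call was lost without any 1 of its 4 arrays (-0.32 to -0.26, adjusted p from 0.0506 to 0.120). The F test between lines gave 0.00371.

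PFKL changed little. It measured 9.54 and 9.61 against 9.46 and 9.53 in RPMI8226 and 8.79 and 8.65 against 8.92 and 8.84 in KMS-11. In U266 it measured 8.25 and 8.27 against 8.54 and 8.52, and in IM-9 9.07 and 9.04 against 9.17 and 9.14. The order was by line, RPMI8226 highest and U266 lowest, with no overlap between neighbouring groups of the 8. PFKL rose in U266 by 0.27 ± 0.06 (limma adjusted p = 0.00844), a call lost without the first parental or the first HR array of U266 (0.26 in both, adjusted p of 0.0579 and 0.0619), and did not pass in the other lines.

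Relative to PFKM within an array, both other types were higher in the HR cells of every line. The log2 ratio of PFKP to PFKM changed by 0.36, 0.42, 1.35 and 0.87 in the 4 lines in turn, with a mean of 0.75. The ratio of PFKL to PFKM changed by 0.19, 0.18, 0.56 and 0.73, with a mean of 0.41. Each had an exact permutation p of 0.00154, the smallest possible, and an adjusted p of 0.00309. The 2 pairs share PFKM and are not independent of each other.

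The bifunctional PFKFB enzymes make and remove fructose 2,6-bisphosphate, the strongest activator of phosphofructokinase-1. PFKFB3 acts mainly as the kinase and is induced in proliferating and low-oxygen cells, PFKFB4 is the isoform first found in testis, and PFKFB2 is the heart isoform. PFKFB3 measured 7.84 and 7.83 against 8.85 and 8.99 in RPMI8226 and 7.80 and 7.82 against 9.36 and 9.34 in KMS-11. It measured 6.49 and 6.35 against 9.02 and 8.96 in U266 and 8.45 and 8.59 against 8.67 and 8.67 in IM-9. Parental IM-9 was the highest parental group and parental U266 the lowest, while IM-9-HR was the lowest HR group. Both parental U266 arrays lay only slightly above the filter level, so the fold in U266 starts near it. PFKFB3 rose 5.93-fold in U266 (limma adjusted p = 7.8e-11), 2.91-fold in KMS-11 (6.32e-08) and 2.12-fold in RPMI8226 (2.58e-07). In IM-9 it differed by 0.15 ± 0.07 (0.125). Its F test between lines had the smallest adjusted p of the 25 genes, 1.96e-08.

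PFKFB4 shared the order of parental levels only in part. Its arrays read 6.28 and 6.22 against 8.49 and 8.65 in RPMI8226 and 5.96 and 6.10 against 7.37 and 7.41 in KMS-11. They read 6.89 and 7.06 against 9.17 and 9.17 in U266 and 7.11 and 7.32 against 7.37 and 7.49 in IM-9. Parental KMS-11 lay below the filter level on both arrays and parental RPMI8226 at about that level, and the highest values were those of U266-HR. PFKFB4 rose 4.99-fold in RPMI8226 (limma adjusted p = 1.56e-09), 4.59-fold in U266 (2.53e-09) and 2.57-fold in KMS-11 (1.76e-06). The IM-9 difference was 0.22 ± 0.09 (0.0775), which passed without the second parental array of IM-9 (0.32, adjusted p = 0.0250). By the F test the lines were unequal (2.2e-07). The deposited table has no detection call, so a fold that starts from a value near the filter level is given as measured.

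PFKFB2 lay low and passed in no line in this fit. It measured 4.57 and 4.75 against 4.41 and 4.36 in RPMI8226 and 6.6 and 6.59 against 6.37 and 6.12 in KMS-11. In U266 it measured 6.72 and 6.94 against 6.68 and 6.85, and in IM-9 4.99 and 5.08 against 5.34 and 5.20. RPMI8226 and IM-9 were below the filter level on all arrays. The differences were -0.27, -0.35, -0.06 and 0.23 in the 4 lines in turn (SE 0.10, smallest limma adjusted p 0.0548 in KMS-11). The F test between lines (0.0197) includes RPMI8226 and IM-9, where the values are below the filter level, and is given as computed. In KMS-11 the difference passed as a fall after a second quantile normalization (-0.37, limma adjusted p = 0.0485) and with array weights (-0.35, 0.0225). Without the first HR array of KMS-11 it was -0.48.

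The log2 ratio of PFKFB3 to PFKFB2 changed by 1.35, 1.89 and 2.63 in RPMI8226, KMS-11 and U266 and by -0.08 in IM-9. Its mean of 1.45 had an exact permutation p of 0.00772 and an adjusted p of 0.0129. In RPMI8226 and IM-9, however, PFKFB2 lay below the filter level on all 8 arrays. Over KMS-11 and U266 alone the mean was 2.26 with an exact p of 0.0556, the smallest that 36 arrangements can give, and an adjusted p of 0.0794, so the pair then no longer passes. The ratio of PFKFB4 to PFKFB3 changed by 1.24 in RPMI8226, where PFKFB4 gained more. It changed by -0.18 in KMS-11 and -0.37 in U266, where PFKFB3 gained more, and by 0.07 in IM-9, and the mean of 0.19 did not pass the exact permutation test (p = 0.323, adjusted p = 0.358).

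Aldolase splits fructose 1,6-bisphosphate. ALDOA is the muscle and general form and ALDOC the brain form. ALDOC measured 8.88 and 8.66 against 9.55 and 10.00 in RPMI8226 and 7.95 and 7.82 against 9.33 and 9.36 in KMS-11. It measured 9.36 and 9.28 against 10.42 and 10.47 in U266 and 7.77 and 7.84 against 8.33 and 8.44 in IM-9. HR arrays lay above parental arrays in every line, and parental KMS-11 and IM-9 overlapped at the low end. ALDOC rose 2.76-fold in KMS-11 (limma adjusted p = 1.27e-05), 2.19-fold in U266 (2.1e-05), 2.00-fold in RPMI8226 (5.13e-05) and 1.49-fold in IM-9 (0.00239). Its differences were 1.00, 1.46, 1.13 and 0.58 log2 units in the 4 lines in turn (SE 0.12) and were unequal by the F test (0.00630). They spanned 0.89, where those of PFKFB3 spanned 2.42 and those of PFKFB4 2.10.

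ALDOA measured 9.0 and 9.04 against 9.15 and 9.20 in RPMI8226 and 9.27 and 9.26 against 9.39 and 9.41 in KMS-11. It measured 9.01 and 8.97 against 9.30 and 9.34 in U266 and 8.89 and 8.91 against 9.09 and 9.11 in IM-9. Its 16 values lay only between 8.89 and 9.41, with HR above parental in each line. ALDOA rose 1.26-fold in U266 (limma adjusted p = 0.000684) and 1.15-fold in IM-9 (0.0114). The IM-9 call was lost without the first parental or the second HR array (0.19 in both, adjusted p of 0.0505 and 0.0676). In RPMI8226 it just missed (0.0507) and passed after a second quantile normalization (0.0351). Within arrays the log2 ratio of ALDOC to ALDOA changed by 0.85, 1.33, 0.80 and 0.38 in the 4 lines in turn, with a mean of 0.84 (exact permutation p = 0.00154, the smallest possible, adjusted p = 0.00309).

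**Figure D3:**
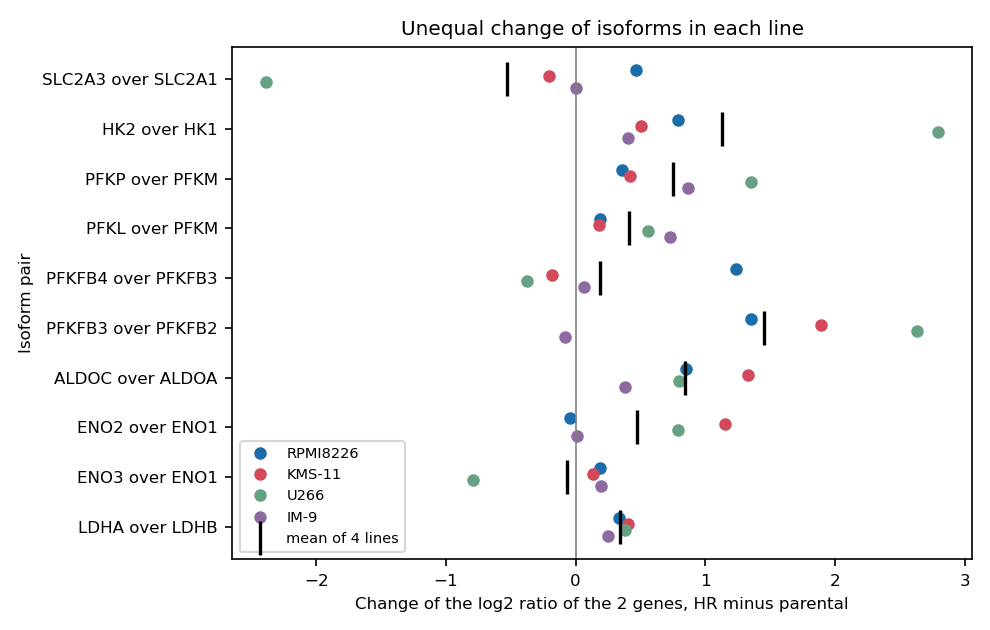
Change of the log2 ratio of 2 genes of a family within an array, HR minus parental, for the 10 pairs compared, with 1 point per line and a black bar at the mean of the 4 lines. The PFKFB2, HK1, ENO3 and SLC2A3 ratios include lines in which that gene was below the filter level. For HK2 over HK1, PFKP over PFKM, PFKL over PFKM, ALDOC over ALDOA and LDHA over LDHB all 4 points lie right of 0, while SLC2A3 over SLC2A1 runs from -2.39 to 0.47.

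Triose phosphate isomerase (TPI1) measured 12.44 and 12.44 against 12.53 and 12.52 in RPMI8226 and 11.09 and 11.04 against 11.44 and 11.47 in KMS-11. It measured 10.05 and 10.09 against 11.10 and 11.09 in U266 and 11.29 and 11.26 against 11.39 and 11.37 in IM-9. RPMI8226 was more than 2 log2 units above U266 among parental cells, a gap that narrowed in the HR groups. TPI1 rose 2.04-fold in U266 (limma adjusted p = 2.65e-08) and 1.31-fold in KMS-11 (0.000909), and differed by 0.09 and 0.11 in RPMI8226 and IM-9 (SE 0.05). The F test gave 2.43e-06. A second TPI1 probe set differed by -0.06, 0.37, 0.94 and 0.23 in the 4 lines in turn, and with the mean of both the IM-9 difference passed (0.17, adjusted p = 0.0497).

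GAPDH, the enzyme between the split and the ATP-yielding part of the pathway and a common reference gene, lay between 13.23 and 13.49 on all arrays. Its differences ran from -0.02 to 0.08 (SE 0.06) and none passed. Its mean of 13.35 is close to the highest value in the table, 13.92.

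Phosphoglycerate kinase (PGK1), the pathway's earlier ATP-producing step, measured 12.03 and 12.09 against 12.29 and 12.37 in RPMI8226 and 11.29 and 11.32 against 11.84 and 11.84 in KMS-11. It measured 11.44 and 11.41 against 12.15 and 12.14 in U266 and 11.47 and 11.51 against 11.67 and 11.70 in IM-9. HR arrays were above parental arrays in each line, and none of the 8 groups overlapped its neighbour in level. PGK1 rose 1.65-fold in U266 (limma adjusted p = 1.19e-06), 1.45-fold in KMS-11 (0.000142), 1.20-fold in RPMI8226 (0.00377) and 1.15-fold in IM-9 (0.0162), with an SE of 0.06 and an F test of 0.000542. In IM-9 the call was lost without the first parental, the first HR or the second HR array (0.18, 0.21 and 0.18, adjusted p of 0.0760, 0.0503 and 0.0927) and after a second quantile normalization (0.14, 0.0535). PGAM2, the muscle phosphoglycerate mutase (6.45 to 6.96), and BPGM, which makes the red cell's 2,3-bisphosphoglycerate (7.6 to 8.70), had differences from -0.18 to 0.21, none of which passed.

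Enolases came as ENO1, the general form, ENO2, the neuronal form, and ENO3, the muscle form. ENO2 measured 8.89 and 8.84 against 8.86 and 8.64 in RPMI8226 and 6.64 and 6.61 against 7.99 and 7.87 in KMS-11. It measured 8.50 and 8.48 against 9.66 and 9.65 in U266 and 9.49 and 9.47 against 9.51 and 9.63 in IM-9. Parental KMS-11 stood lowest by almost 2 log2 units, IM-9 highest, and HR arrays were clearly above parental ones in KMS-11 and U266. ENO2 rose 2.46-fold in KMS-11 (limma adjusted p = 4.04e-07) and 2.23-fold in U266 (1.91e-07). It differed by -0.11 ± 0.07 in RPMI8226 (0.307) and 0.09 in IM-9 (0.407), and the F test between lines gave 5.82e-07.

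ENO1 measured 13.04 and 12.94 against 12.90 and 12.93 in RPMI8226 and 12.95 and 12.91 against 13.07 and 13.09 in KMS-11. It measured 12.77 and 12.65 against 13.09 and 13.07 in U266 and 12.86 and 12.83 against 12.91 and 12.93 in IM-9. All 16 values lay between 12.65 and 13.09, and parental U266 was the lowest group. ENO1 rose in U266, 1.3-fold (limma adjusted p = 0.000776), and not in the other lines, where differences ran from -0.07 to 0.15 (SE 0.06). The F test between lines gave 0.00631.

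ENO3 measured 6.74 and 6.58 against 6.83 and 6.74 in RPMI8226 and 5.26 and 5.59 against 5.58 and 5.83 in KMS-11. It measured 6.64 and 6.94 against 6.36 and 6.39 in U266 and 5.39 and 5.69 against 5.82 and 5.8 in IM-9. KMS-11 and IM-9 were below the filter level on all arrays. ENO3 fell by 0.42 ± 0.13 in U266 (limma adjusted p = 0.0487), a call lost without the second parental array (-0.27, adjusted p = 0.325), the first HR array (-0.40, 0.179) or the second HR array (-0.43, 0.143).

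The log2 ratio of ENO2 to ENO1 changed by 1.15 in KMS-11 and 0.79 in U266 and by -0.04 and 0.01 in RPMI8226 and IM-9. Its mean of 0.48 had an exact permutation p of 0.0324 and an adjusted p of 0.0463. That call was lost without the first HR array of RPMI8226 (0.45, adjusted p = 0.0683), the first parental array of IM-9 (0.47, 0.0507) or the second HR array of IM-9 (0.46, 0.0573), and by the adjustment alone when other pairs were limited to lines above the filter level (0.0540). The ratio of ENO3 to ENO1 had a mean change of -0.07, with a U266 value of -0.79 (exact permutation p = 0.644), and of -0.30 over RPMI8226 and U266, where ENO3 passed the filter level.

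Pyruvate kinase PKM, whose probe set does not separate its splice forms M1 and M2, lay between 11.82 and 12.67 with parental U266 highest among parental cells. PKM rose 1.21-fold in KMS-11 (limma adjusted p = 0.0205), a call lost without any 1 of the KMS-11 arrays (0.27 to 0.28, adjusted p from 0.103 to 0.115). Its other differences were 0.18, 0.15 and 0.14 in RPMI8226, U266 and IM-9 (SE 0.06), none of which passed. The RPMI8226 value passed after a second quantile normalization (limma adjusted p = 0.0354) and with a filter 1 log2 unit higher (0.0357). It passed with array number as a block (0.0453) and not without a filter (0.0975). With an intensity trend the RPMI8226 (0.00901), U266 (0.0436) and IM-9 (0.0293) values all passed. Without the first HR array of RPMI8226 the difference there was 0.26.

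Lactate dehydrogenase A favours making lactate, and the B subunit, typical of heart, favours the reverse. LDHA measured 12.40 and 12.50 against 12.80 and 12.83 in RPMI8226 and 12.51 and 12.53 against 12.89 and 12.93 in KMS-11. It measured 12.43 and 12.39 against 12.95 and 12.92 in U266 and 12.59 and 12.67 against 12.81 and 12.80 in IM-9. Every HR array was above every parental array of all 4 lines. LDHA rose 1.43-fold in U266 (limma adjusted p = 3.35e-05), 1.31-fold in KMS-11 (0.00171), 1.29-fold in RPMI8226 (0.000487) and 1.13-fold in IM-9 (0.0356), with an SE of 0.06. The IM-9 call was lost without the first parental, the first HR or the second HR array (0.14, 0.17 and 0.17, adjusted p of 0.176, 0.125 and 0.114) and after a second quantile normalization (0.11, 0.103). It was also lost with array weights (limma adjusted p = 0.0598), without a filter (0.0706) and from the 4 IM-9 arrays alone (0.149). Without either KMS-11 parental array or either U266 HR array, LDHA was not among the genes risen in all 4 lines. LDHA, like ENO1 and GAPDH, lies near the top of the table's range.

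LDHB measured 11.82 and 11.79 against 11.82 and 11.85 in RPMI8226 and 11.995 and 11.99 against 11.95 and 11.998 in KMS-11. It measured 11.10 and 11.07 against 11.21 and 11.23 in U266 and 12.31 and 12.37 against 12.25 and 12.28 in IM-9. The level differed by line, IM-9 highest and U266 lowest, and all 6 parental pairs differed. HR differences ran from -0.08 in IM-9 to 0.14 in U266 (SE 0.05, smallest limma adjusted p 0.106 in U266). The U266 value passed with an intensity trend (0.0222) and with array weights (0.0416). Within arrays the log2 ratio of LDHA to LDHB changed by 0.33, 0.41, 0.38 and 0.25 in the 4 lines in turn, the narrowest spread of the 10 pairs. Its mean of 0.34 had an exact permutation p of 0.00154, the smallest possible, and an adjusted p of 0.00309. With the line as the unit no pair can go below p = 0.125 in an exact test, so these calls rest on arrays taken as replicates.

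Among parental cells, limma's F test passed 24 of the 25 genes, all but PGAM2, as it did 94.3% of all genes. Pairwise, 21 of the 25 differed between KMS-11 and U266 (66% of all genes), 20 between RPMI8226 and KMS-11 (76.9%), 20 between RPMI8226 and U266 (79.1%), 19 between U266 and IM-9 (66.5%), 18 between RPMI8226 and IM-9 (73.7%) and 17 between KMS-11 and IM-9 (63.8%). Parental gaps of mean level reached 3.17 for HK2 (KMS-11 over U266) and 2.95 for SLC2A1 (RPMI8226 over U266). Next were 2.88 for HK1 (IM-9 over RPMI8226, where HK1 lay below the filter level) and 2.86 for ENO2 (IM-9 over KMS-11). U266 held the lowest parental mean for 13 of the 25 genes (30.2% of all genes tested) and the largest HR minus parental difference for 14 (28.3% of all). IM-9 held the lowest difference, taken with its sign, for 13 of the 25 (35.0% of all). The same parental arrays enter both the parental mean and the difference, so these counts are not independent of each other.

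The spread over the 4 lines was narrower in HR than in parental means for 16 of the 25 genes, against 51.3% of all genes. HK2 went from a range of 3.17 to 0.71 log2 units, PFKFB3 from 2.10 to 0.68 and SLC2A1 from 2.95 to 2.21. TPI1 went from 2.37 to 1.43 and ENO2 from 2.86 to 1.73. For these genes a low parental line, U266 or for ENO2 KMS-11, came closer to the others. The range widened for SLC2A3 (2.26 to 3.0), PFKFB4 (1.18 to 1.78) and ALDOC (1.51 to 2.06). The SLC2A3 ranges take in U266, with means below the filter level. The parental ranges of SLC2A3 and PFKFB4 take in RPMI8226, and that of PFKFB4 also KMS-11, again with means below it. No test was made of these ranges.

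**Figure D4:**
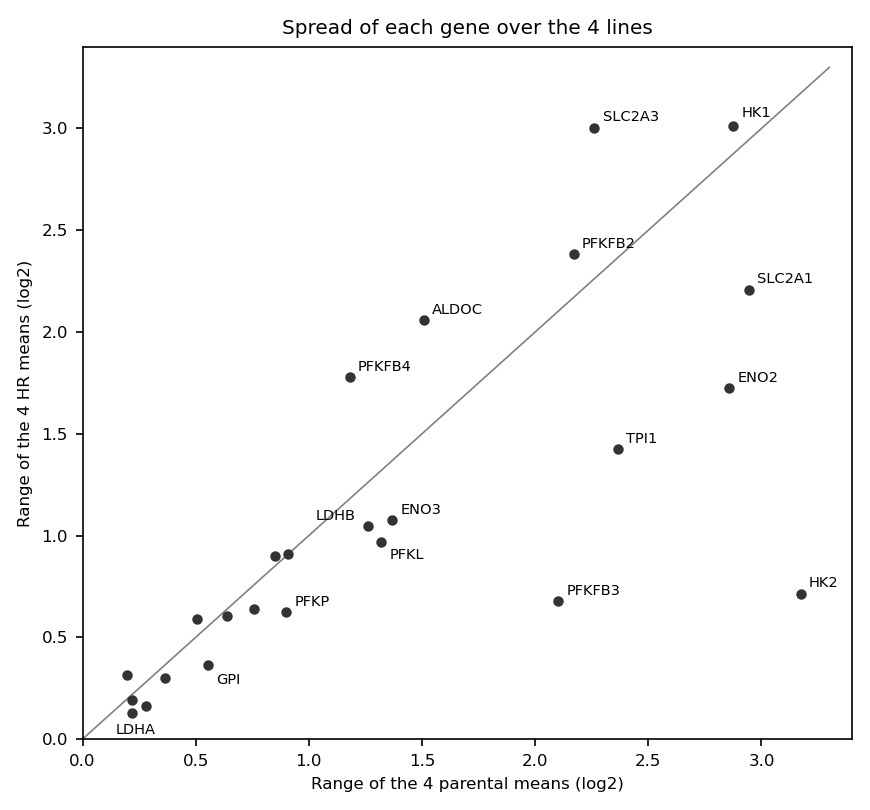
Range over the 4 parental line means (horizontal axis, log2) against range over the 4 HR line means (vertical axis, log2), 1 point per gene for the 25 tested, with a line of equality. HK2 and PFKFB3 lie far below the line and SLC2A3, PFKFB4 and ALDOC above it.

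Of the other isoforms and partners of the pathway, 24 of 27 listed genes were in the table and 14 were tested, of which 1 rose and 0 fell in U266 (9.68% and 8.42% of all genes), 1 and 2 in KMS-11 (2.44% and 5.83%), 2 and 3 in RPMI8226 (10.7% and 15.3%), and 2 and 2 in IM-9 (14.4% and 21.3%). With lists this short, counts of this size are near those shares. SLC2A12, a further glucose transporter, rose in RPMI8226, KMS-11 and IM-9 (differences of 0.75, 0.91 and 1.14, SE 0.11) and was at -0.25 in U266. SLC2A13, a proton and myo-inositol transporter, rose in U266 (0.25) and fell in KMS-11 (-0.33) and IM-9 (-0.36, SE 0.07). SLC16A7, the monocarboxylate transporter MCT2, fell in RPMI8226 (-0.29) and KMS-11 (-0.58, SE 0.10).

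In the pentose phosphate pathway, which makes NADPH and ribose from glucose 6-phosphate, all 10 genes in the table were tested. Of these, 1 rose and 0 fell in U266 (9.68% and 8.42% of all genes), 0 and 2 in KMS-11 (2.44% and 5.83%), 2 and 0 in RPMI8226 (10.7% and 15.3%), and 0 and 6 in IM-9 (14.4% and 21.3%). Ribose 5-phosphate isomerase RPIA fell in KMS-11 (-0.46) and IM-9 (-0.82, SE 0.07). Transketolase TKT rose in RPMI8226 (0.23) and fell in IM-9 (-0.64, SE 0.06). PRPS2, which activates ribose 5-phosphate for nucleotides, rose in U266 (0.42) and fell in KMS-11 (-0.41) and IM-9 (-0.58, SE 0.07).

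Of genes of gluconeogenesis and side branches, 18 of 20 were in the table and 13 were tested, with 2 risen and 0 fallen in U266 (9.68% and 8.42% of all genes), 1 and 3 in KMS-11 (2.44% and 5.83%), 3 and 2 in RPMI8226 (10.7% and 15.3%), and 1 and 3 in IM-9 (14.4% and 21.3%). The falls in RPMI8226 and IM-9 are thus near the shares over all genes. PGM1, which links glucose 6-phosphate with glycogen, rose in RPMI8226, KMS-11 and U266 (0.75, 0.36 and 0.56, SE 0.06) and was at -0.03 in IM-9. GPD1L, a glycerol 3-phosphate dehydrogenase, rose in RPMI8226 (0.56) and U266 (0.60) and fell in KMS-11 (-0.42) and IM-9 (-0.52, SE 0.10). PGP, a phosphoglycolate phosphatase, rose in RPMI8226 (0.31) and fell in KMS-11 (-0.29) and IM-9 (-0.56, SE 0.07).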

How the data were processed

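Total RNA of 16 samples was hybridised to Affymetrix arrays, 1 array per sample. Per the submitters' processing notes, the authors used Affymetrix Expression Console 1.3.0, and the deposited values are on a log2 scale, as their range up to 13.92 and array medians of 6.22 to 6.34 show. The normalization method is not given in the sources used here. The series text gives the array as Human Gene 2.0 ST, whereas the probe sets matched the platform table of Human Gene 1.0 ST. Of 33297 probe sets, 19460 carried 1 gene symbol, 1754 several, and 12083 were not in that table. Symbols were updated by Entrez identifier to RefSeq for 19429 of the 19460.

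Differences were fitted with limma 3.58.1 in R 4.3.3 (lmFit and eBayes) on the 16 arrays as 8 groups, without a further normalization, and p-values were adjusted by Benjamini-Hochberg over 12639 genes in each comparison. A comparison across lines used 8 group means with the line as a block. F tests compared the 4 lines. Isoform ratios were tested by exact permutation within lines, adjusted over 10 pairs. The pair of SLC16A3 and SLC16A1 could not be formed.

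Per-array values are given for genes called in the same direction in at least 3 lines, for the 6 smallest F tests and for both genes of each pair. From each list of neighbouring routes, up to 3 genes called in the most lines are named. The genes, lists and pairs were chosen with earlier results of these data known. The fitting code was tested on simulated data. Alternatives were a second quantile normalization, no filter, a filter 1 log2 unit higher, means of probe sets, an intensity trend, array weights, a block by array number, fits on the 4 arrays of 1 line, and each array or line left out. Pairs over the lines in which both genes lie above the filter level on at least 2 arrays were added after seeing the data. Precision is limited by 2 arrays per group.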

Additional observations from a re-analysis of the deposited data

Results flagged for a closer look

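For 17 of the 25 tested genes the HR minus parental difference was unequal between the 4 lines by limma's F test, against 45.4% of all genes. The value given for each is the range of its 4 line differences, in log2 units. It was 2.74 for HK2 (limma F test adjusted p = 2.51e-07), 2.42 for PFKFB3 (1.96e-08) and 2.10 for PFKFB4 (2.20e-07). The transporters had ranges of 1.97 for SLC2A3 (6.90e-06) and 1.64 for SLC2A1 (4.09e-05). ENO2 had a range of 1.41 (5.82e-07), PFKP of 0.98 (1.25e-05), TPI1 of 0.94 (2.43e-06), ALDOC of 0.89 (0.00630) and GPI of 0.82 (2.09e-05). ENO3 had a range of 0.70 (0.0245). PFKM had a range of 0.61 (0.00371), PFKFB2 of 0.59 (0.0197) and PGK1 of 0.52 (0.000542). The smallest were 0.45 for ENO1 (0.00631), 0.35 for PFKL (0.0314) and 0.35 for LDHA (0.0235). SLC2A3 in U266, PFKFB2 in RPMI8226 and IM-9, and ENO3 in KMS-11 and IM-9 lay below the filter level on every array. With each array left out in turn, 14 to 17 of the 25 genes passed. Groups of 2 arrays are too small to look for single outlying arrays.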

How the results depend on the processing

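No difference that passed in either fit changed sign under any alternative run. Genes called in KMS-11 numbered 1045, 2083 with array weights and 348 to 401 with 1 array of that line left out. Called genes numbered 2287 in U266 (1425 to 1532 with an array left out), 3288 in RPMI8226 (2418 to 2714) and 4506 in IM-9 (3134 to 4348, and 2843 from the 4 arrays of that line alone). Of the 25 glycolysis genes, those risen in IM-9 numbered 8, 4 from the 4 arrays of that line alone and 4 to 10 with an array left out. With an array left out, 10 rose in KMS-11 (13 with all), 9 to 10 in RPMI8226 and 13 to 14 in U266. The F test between lines then passed 4932 to 6200 genes and 14 to 17 of the 25, and the parental F test 11627 to 12024 genes and 23 to 24 of the 25. Across lines, 0 to 1 genes (1 without RPMI8226) and 0 of the 25 passed with a line left out. Same-numbered arrays of a line did not deviate together in every line (correlations of their deviations from the group means of 0.20 for RPMI8226, 0.11 for IM-9, 0.07 for KMS-11 and -0.05 for U266), so array numbers were not taken as pairs. With array number within a line as a replicate block over 16 arrays, 176 genes and 6 of the 25 passed across lines (SLC2A1, PFKFB3, PFKFB4, ALDOC, PGK1 and LDHA). The same block within lines ended the PFKM calls in RPMI8226 (adjusted p = 0.0554) and U266 (0.0547), added a PKM call in RPMI8226 (0.0453) and changed no other call of the 25. Taking the line as the unit ended every isoform pair call, at unchanged mean changes of 1.12 for HK2 over HK1, 0.75 for PFKP over PFKM, 0.41 for PFKL over PFKM, 1.45 for PFKFB3 over PFKFB2, 0.84 for ALDOC over ALDOA, 0.48 for ENO2 over ENO1 and 0.34 for LDHA over LDHB (adjusted p from 0.25 to 0.536), where 4 lines cannot go below 0.125. In an alternative chosen after seeing the data, each pair was taken over the lines in which both genes pass the filter level. It gave 1.24 for HK2 over HK1 (adjusted p = 0.0185), 2.26 for PFKFB3 over PFKFB2 (0.0794, call lost with 2 lines left), 0.09 for SLC2A3 over SLC2A1 and -0.30 for ENO3 over ENO1, and the changed adjustment moved ENO2 over ENO1 (0.48) to 0.0540. With an array left out, the means ran from 0.45 to 0.51 for ENO2 over ENO1, the 1 pair whose call was then lost. The changes under array weights and under the block had causes that were not tested, while leave-outs and single-line fits rest on fewer arrays. A second quantile normalization ended the ENO3 call in U266 (-0.39, adjusted p = 0.0760). Fits on 1 line's 4 arrays ended the calls of PGK1 (0.26, limma adjusted p = 0.0794) and PFKM (-0.27, 0.117) in RPMI8226. They also ended the ENO3 call in U266 (-0.42, 0.0539). In IM-9 they ended the calls of GPI (0.0973), PFKP (0.0631), ALDOA (0.100), PGK1 (0.106) and LDHA (0.149) and added HK2 (0.0423).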

Other observations

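The 5 probe sets that carry both PGAM1 and PGAM4, phosphoglycerate mutases that cannot be told apart here, had HR minus parental differences of 0.23 to 0.24 in RPMI8226, 0.60 to 0.64 in KMS-11, 0.57 to 0.62 in U266 and 0.04 to 0.13 in IM-9 on the log2 scale. HR and parental arrays did not overlap in any line on any of the 5, of which 2 held identical values. How many of all probe sets part in this way was not counted. The 5 carry the same gene symbols and are not separate results. These 5 probe sets were not tested, since no gene can be named from them.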
